A study of Mus musculus with 17 samples.

Results

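The Hox genes described here are 38 genes of the Hoxa, Hoxb, Hoxc and Hoxd clusters, the members below, that were taken by name from the GENCODE annotation of the mouse assembly GRCm38 (mm10), out of 21938 protein-coding genes on chromosomes 1 to 19, X and Y. They were followed in ChIP-seq of histone H3.3 from CD1 mice. Microdissected newborn lens epithelium and lens fibers gave 2 libraries each, and the labels give both compartments the same strain and age and name no transgene or treatment. The sample titles give day 1 after birth and the methods day 0.5, and the labels give 150 pooled lenses per sample whereas the methods give 200 lenses. Islands are stretches in which the authors' caller found ChIP reads above background, separately for every library, and the values below are the position of an island and its read count.

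Hox genes encode homeodomain transcription factors that pattern the body axis and the limbs, and their order along each chromosome follows the order of their expression from front to back. In tissues that do not use them, Polycomb complexes keep the clusters silent by modifying histones H2A and H3. The lens forms from head ectoderm in front of the Hox expression domains, and histone H3.3 is a variant deposited independently of replication, mainly at active genes and regulatory elements.

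The Hox clusters were almost free of called H3.3 islands in both lens compartments. Out of 87822 islands in the 4 libraries, 4 islands (0.00455%) overlapped a cluster, whereas the clusters make up 0.0183% of the assembled bases. No member had an island in more than 2 libraries. A total of 35 members (92.1%) had no called island in any library, as had 39.0% of all protein-coding genes. Hoxa3 had an island in 2 libraries, and Hoxa4 and Hoxd9 each had one in fiber replicate 2.

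The sequences just upstream of 3 Hox starts and of 1 gene beside the Hoxc cluster are shown because most CpG-rich 5′ ends of protein-coding genes had an island in the fiber libraries, and a minority had one in the epithelium libraries. They come from the RefSeq promoter table of GRCm38.p6, are cut to bases outside annotated exons, read from 5′ to 3′ on the gene's own strand and have every CG in capitals. CG reads the same on both strands, and 94.6% of the 32851 promoters in that table, each of 300 bases, hold at least 1 CG, with a median of 7. The table holds 22 of the 38 members. The stretch of Hoxd9, chr2:74697587-74697726 on the plus strand, has 6 CG in 140 bases and overlaps an island of fiber replicate 2. Those of Hoxa5, chr6:52204588-52204837 on the minus strand, and Hoxd13, chr2:74667975-74668224 on the plus strand, have 28 and 31 CG in 250 bases and lie in no called island. Cbx5 encodes heterochromatin protein 1 alpha and lies beyond the Hoxc cluster. Its stretch, chr15:103239853-103240102 on the minus strand, has 22 CG and overlaps an island in all 4 libraries. The stretch lies between Cbx5 and the neighbouring gene Hnrnpa1, so these islands cannot be assigned to Cbx5 alone.
Hoxd9: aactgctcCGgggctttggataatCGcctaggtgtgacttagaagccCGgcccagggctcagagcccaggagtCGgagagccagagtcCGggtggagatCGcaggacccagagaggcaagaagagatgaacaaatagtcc
Hoxa5: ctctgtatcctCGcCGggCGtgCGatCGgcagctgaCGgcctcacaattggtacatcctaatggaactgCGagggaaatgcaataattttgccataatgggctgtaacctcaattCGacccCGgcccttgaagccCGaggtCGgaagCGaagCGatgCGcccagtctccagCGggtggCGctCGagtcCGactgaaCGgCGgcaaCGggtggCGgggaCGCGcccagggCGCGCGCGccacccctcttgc
Hoxd13: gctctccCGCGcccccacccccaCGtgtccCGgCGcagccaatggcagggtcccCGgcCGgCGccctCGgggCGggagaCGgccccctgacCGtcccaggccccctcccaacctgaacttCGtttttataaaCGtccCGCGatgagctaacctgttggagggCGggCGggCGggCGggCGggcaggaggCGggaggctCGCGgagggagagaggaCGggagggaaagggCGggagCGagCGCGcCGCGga
Cbx5: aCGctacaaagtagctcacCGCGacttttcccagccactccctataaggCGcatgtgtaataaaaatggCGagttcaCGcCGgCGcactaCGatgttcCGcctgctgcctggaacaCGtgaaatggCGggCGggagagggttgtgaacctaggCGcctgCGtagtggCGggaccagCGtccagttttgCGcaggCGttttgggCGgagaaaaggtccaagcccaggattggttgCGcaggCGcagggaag

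The libraries differed in the number of islands. Epithelium replicate 1 had 10389 islands, epithelium replicate 2 had 14434, fiber replicate 1 had 27059 and fiber replicate 2 had 35940, with 1331369 to 5359085 reads in islands. Sequencing depth is unknown, so a gene without an island is described as having no called island and no limit of detection was computed. An island carried at least 22 to 37 reads, depending on the library. These are bulk samples, in which H3.3 in a few cells and little H3.3 in all cells cannot be told apart. Islands were present at 8 of 8 lens fiber marker genes (such as Mip, Bfsp1 and Lim2) in both fiber libraries and at 4 and 5 of them in the epithelium libraries. All 4 lens epithelium markers, among them Pax6 and Cdh1, also had an island in both fiber libraries, so these genes do not separate the compartments. Of markers of other tissues, 0 of 3 muscle genes, 1 or 2 of 5 retina genes and 1 or 2 of 5 blood and endothelium genes had an island, and their part in the results was not tested.

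Among the 38 members, an island overlapped the gene body of 1 member in epithelium replicate 1, of 0 members in epithelium replicate 2, of 0 members in fiber replicate 1 and of 3 members in fiber replicate 2. For all protein-coding genes the share was 25.8% and 30.3% in the epithelium libraries, and 50.8% and 56.7% in the fiber libraries. The members' share was therefore 23.2 and 30.3 percentage points below the background in the epithelium libraries and 50.8 and 48.8 points below it in the fiber libraries. The Hox genes stayed near 0 in the compartment where most protein-coding genes carried an island as well as in the one where most did not. Members of 1 cluster are neighbours and are not independent, so this is a description without a test.

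**Figure D1:**
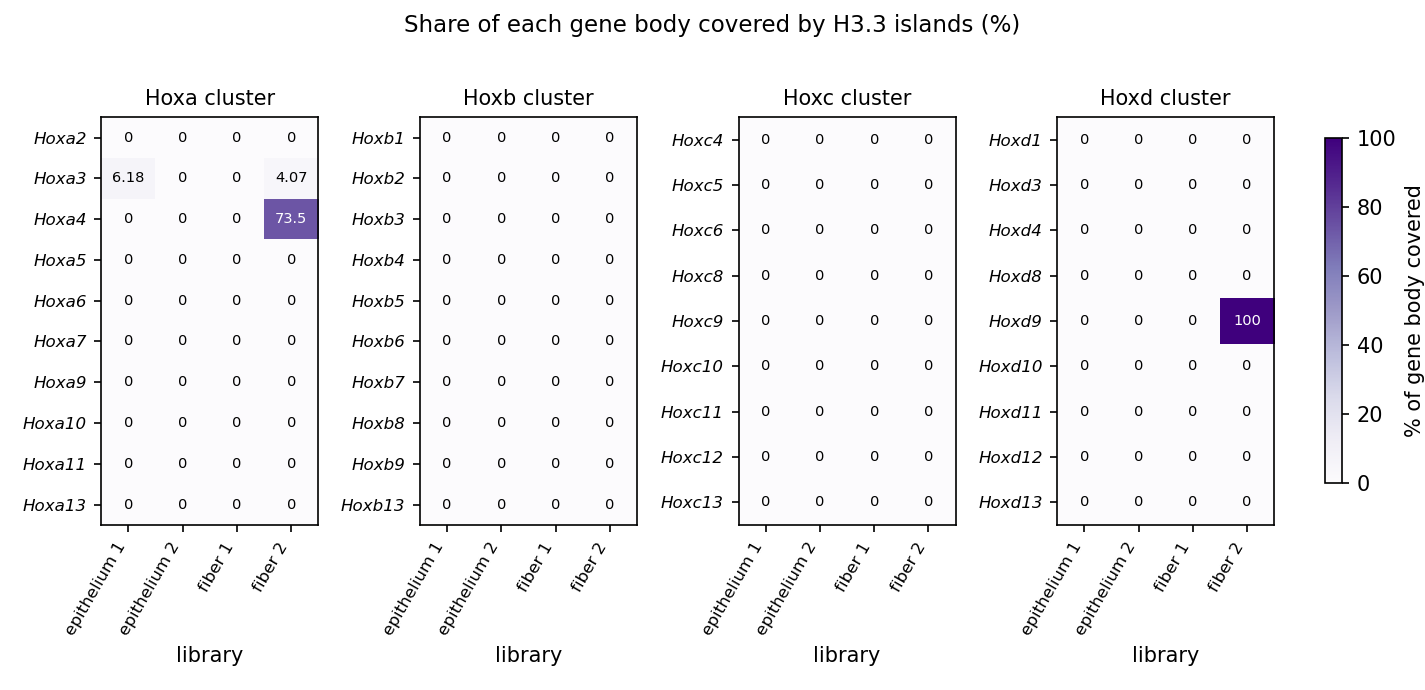
Share of each Hox gene body, in percent, covered by H3.3 islands, with one panel per cluster, members in rows by paralog number and the 4 libraries in columns. All cells are 0 except 2 for Hoxa3 (6.18% and 4.07%), 1 for Hoxa4 (73.5%) and 1 for Hoxd9 (100%).

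By position, the members divide into anterior, central and posterior paralogs. Of the 11 anterior members, paralogs 1 to 4, which pattern the hindbrain and pharyngeal arches, 1 had an island in epithelium replicate 1 and 2 had one in fiber replicate 2. None of the 11 central members, paralogs 5 to 8, had a called island over the gene body in any library. The 2 anterior members in fiber replicate 2, Hoxa3 and Hoxa4, share the same island. The annotated span of Hoxa3 also runs across the central genes Hoxa5 and Hoxa6. The Hoxa3 island in epithelium replicate 1 lies between the gene bodies of Hoxa6 and Hoxa7. The counts by paralog group therefore depend on the annotated gene spans. Of the 16 posterior members, paralogs 9 to 13, which pattern the trunk end, limbs and genital tract, 1 had an island, in fiber replicate 2. The members without a called island were Hoxa2, Hoxa5, Hoxa6, Hoxa7, Hoxa9, Hoxa10, Hoxa11 and Hoxa13 in the Hoxa cluster, all members of the Hoxb and Hoxc clusters, and Hoxd1, Hoxd3, Hoxd4, Hoxd8, Hoxd10, Hoxd11, Hoxd12 and Hoxd13 in the Hoxd cluster. They include Hoxa13 and Hoxd13, which shape the digits, Hoxb13, a regulator of the prostate, and Hoxc13, a regulator of hair.

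Hoxa4, which patterns the neck region, was the Hoxa member with the highest covered share in fibers. Its gene body (chr6:52189671-52191753, minus strand) was covered by 0% in both epithelium libraries, 0% in fiber replicate 1 and 73.5% in fiber replicate 2. The island, chr6:52189401-52191200, held 55 reads over 1800 bp, a density of 30.6 reads per kb. Of that library's islands, 71.9% were less dense, but only 2.09% had fewer reads and 3.09% were shorter. The island overlapped 1041 bp of Hoxa4 exons and ended 553 bp from the gene's start. It also overlapped 525 bp of exons of Gm29430, so its reads cannot be assigned to Hoxa4 alone. Hoxa4 lies within the long annotated span of Hoxa3, so the same island counts for Hoxa3 as well, although it touched 0 bp of Hoxa3 exons.

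Hoxd9, which acts with its paralogs in the lumbosacral region and the proximal forelimb, was the Hoxd member with the highest covered share in fibers. Its gene body (chr2:74697727-74700208, plus strand) was covered by 0% in 3 libraries and by 100% in fiber replicate 2. The island, chr2:74696601-74700600, was 4000 bp long with 81 reads, or 20.3 reads per kb. Only 1.99% of the islands of that library were less dense. The CG-containing stretch printed for Hoxd9 lies inside it. The island also overlapped 335 bp of exons of Gm14396 and 413 bp of exons of Gm28793, so its reads cannot be assigned to Hoxd9 alone.

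The remaining islands were in epithelium. In epithelium replicate 1, an island of 2800 bp with 78 reads, 27.9 reads per kb, covered the 5′ end of Hoxa3 (chr6:52210601-52213400), and with it 6.18% of the Hoxa3 gene body. Hoxa3, which is needed for the thymus and parathyroid, also overlaps the antisense gene Hoxaas3 there, and island reads cannot be assigned to a strand. In epithelium replicate 2, an island of 2400 bp with 59 reads, 24.6 reads per kb, lay in an intron of the non-coding gene Gm53 between Hoxb13 and Hoxb9 (chr11:96259201-96261600), 9857 bp from the start of Hoxb9. The islands at Hoxa3, Hoxa4, Hoxd9 and Gm53 overlapped an island in 0 other libraries each. Over all islands, 12.0% and 15.2% of those in epithelium and 12.2% and 27.9% of those in fibers were found in a single library. Islands found in a single library, as these were, thus made up a minority in each library. An island of the other replicate was overlapped by 55.2% and 42.3% of the islands in epithelium replicates 1 and 2. In fibers the shares were 84.9% and 67.9%. Lacking a match in the other replicate is a looser criterion than lacking one in all other libraries.

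At the level of whole clusters, 0.577% of the 485 kb in the 4 clusters lay in islands in epithelium replicate 1, 0.495% in epithelium replicate 2, 0% in fiber replicate 1 and 1.20% in fiber replicate 2. Of all assembled bases, islands covered 1.71% and 1.85% in epithelium and 6.72% and 7.09% in fibers. Hoxc, of 116 kb and 9 members, had 0 islands in every library. Hoxa was covered by 2.84% in epithelium replicate 1 and 1.83% in fiber replicate 2, Hoxb by 1.38% in epithelium replicate 2, and Hoxd by 4.13% in fiber replicate 2. The fiber libraries thus lay on both sides of the epithelium libraries in the total over clusters.

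The compartments were compared over libraries. The number of members with an island was 0.5 ± 0.707 (SD, n = 2) in epithelium and 1.5 ± 2.12 (SD, n = 2) in fibers, a difference of 1 member that was smaller than the spread between the fiber replicates (exact permutation test, two-sided, p = 1). The covered share was 0.536 ± 0.0583% (SD, n = 2) in epithelium and 0.598 ± 0.846% (SD, n = 2) in fibers (exact permutation test, two-sided, p = 1). With 2 libraries against 2 the smallest p is 0.33, so that this design cannot reach 0.05. The difference rests on fiber replicate 2, and without it the fiber value was 0 for both measures. Each epithelium library had 1 cluster island, with densities of 27.9 and 24.6 reads per kb. In fiber replicate 2 the median was 25.4 reads per kb, from 2 islands with 30.6 and 20.3 reads per kb. Fiber replicate 1 gave none, so density was not tested.

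**Figure D2:**
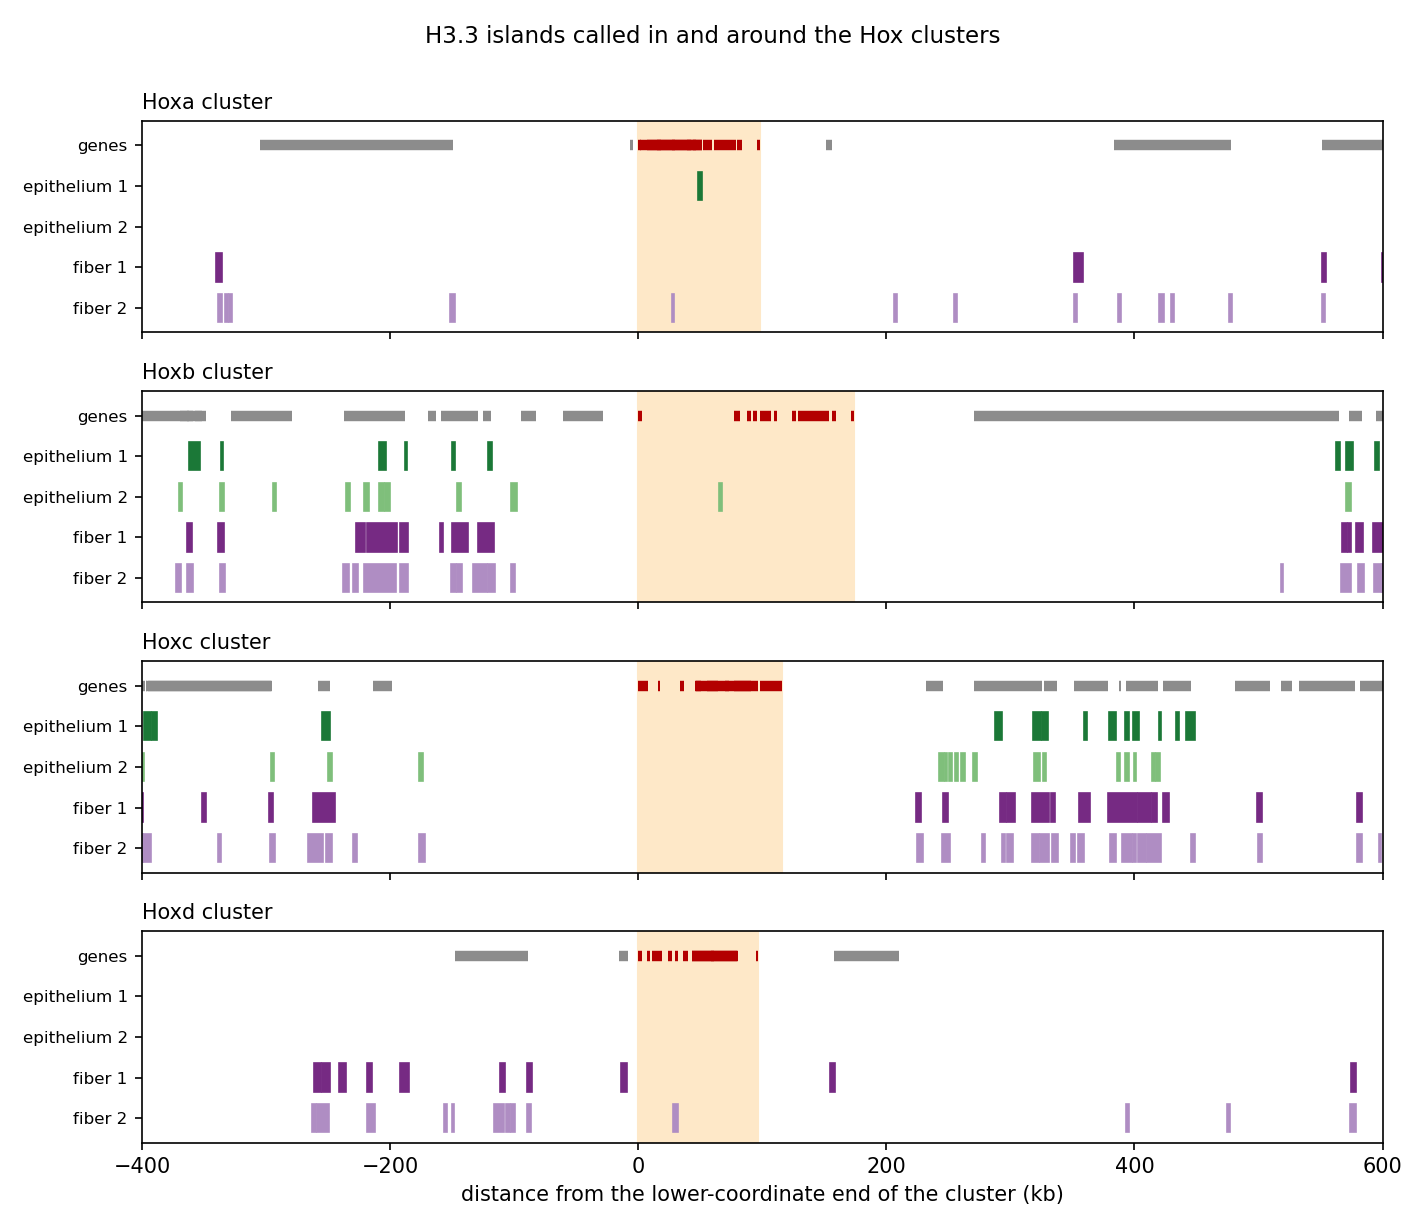
H3.3 islands of the 4 libraries (colored blocks, one row per library) from 400 kb before to 600 kb after the lower-coordinate end of each Hox cluster, with distance in kb on the horizontal axis. The shaded span is the cluster, red bars are protein-coding genes that start in it and grey bars the other protein-coding genes. The clusters hold 1, 1, 0 and 2 islands in the 4 libraries, and the Hoxb and Hoxc flanks hold islands in every library.

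The members were then compared by range of gene length, position of the island and gene density. They span 1853 bp (Hoxc12) to 49987 bp (Hoxc5), with a median of 3496.5 bp against 17.4 kb for all protein-coding genes. The 15479 protein-coding genes in that range had an island in 26.2% and 30.2% in epithelium and in 49.3% and 54.3% in fibers. The same 1, 0, 0 and 3 members had one. Lengths within the range were not matched to those of the members, so the part of length in the difference was not tested. Within 1 kb of the 5′ end, 1, 0, 0 and 2 members had an island, against 15.0%, 18.4%, 39.0% and 45.1% of all protein-coding genes in the order epithelium replicate 1, epithelium replicate 2, fiber replicate 1, fiber replicate 2. Among 78 windows of 100 kb with at least 9 protein-coding starts, of which 1 overlaps a Hox cluster, 82.1%, 87.2%, 89.7% and 89.7% held an island, whereas 1, 1, 0 and 2 of the 4 clusters did. Islands covered a median of 14.8% and 18.3% of these windows in epithelium and 40.7% and 36.9% in fibers. The share of windows covered no more than the Hox clusters together was 17.9%, 12.8%, 10.3% and 10.3%, so some other gene-dense windows were as poor in islands.

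The base composition of the clusters was compared with the genome. GC content was at least 48.9% in each of the 4 clusters and 41.7% over the assembled chromosomes, and there were 20.9 to 29.9 CpG per kb against 8.26. Soft-masked repeats made up 13.4 to 24.6% of the clusters and 36.4% of the chromosomes. In the 1 kb around the 5′ end, the members had a median of 52 CpG and an observed over expected CpG ratio of 0.665, against 41 and 0.553 for all protein-coding genes. A 5′ end was called CpG-rich at a GC content of at least 50% and a ratio of at least 0.6, which held for 23 of 38 members (60.5%) and for 44.4% of protein-coding genes. By cluster, these were 8 of 10 members in Hoxa, 3 of 10 in Hoxb, 5 of 9 in Hoxc and 7 of 9 in Hoxd. The CpG count was highest at Hoxa13 with 126, Hoxa4 with 125 and Hoxd13 with 117, and lowest at Hoxb2 with 10. Of these, Hoxa4 had an island and the others had none.

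Protein-coding genes with more CpG at the 5′ end more often had an island there, up to a ratio of 1. With a ratio below 0.25, the share was 4.52% in epithelium replicate 1 and 10.1% in fiber replicate 2, and with a ratio from 0.75 to 1 it was 23.2% and 78.1%. At a ratio of 1 or more, it was 19.9% and 80.6%. Of the 9740 protein-coding genes with a CpG-rich 5′ end, 22.5% and 28.9% had an island within 1 kb in epithelium and 63.1% and 73.6% in fibers. Of the 23 CpG-rich members, 1, 0, 0 and 2 did. This comparison was added after the data had been seen.

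**Figure D3:**
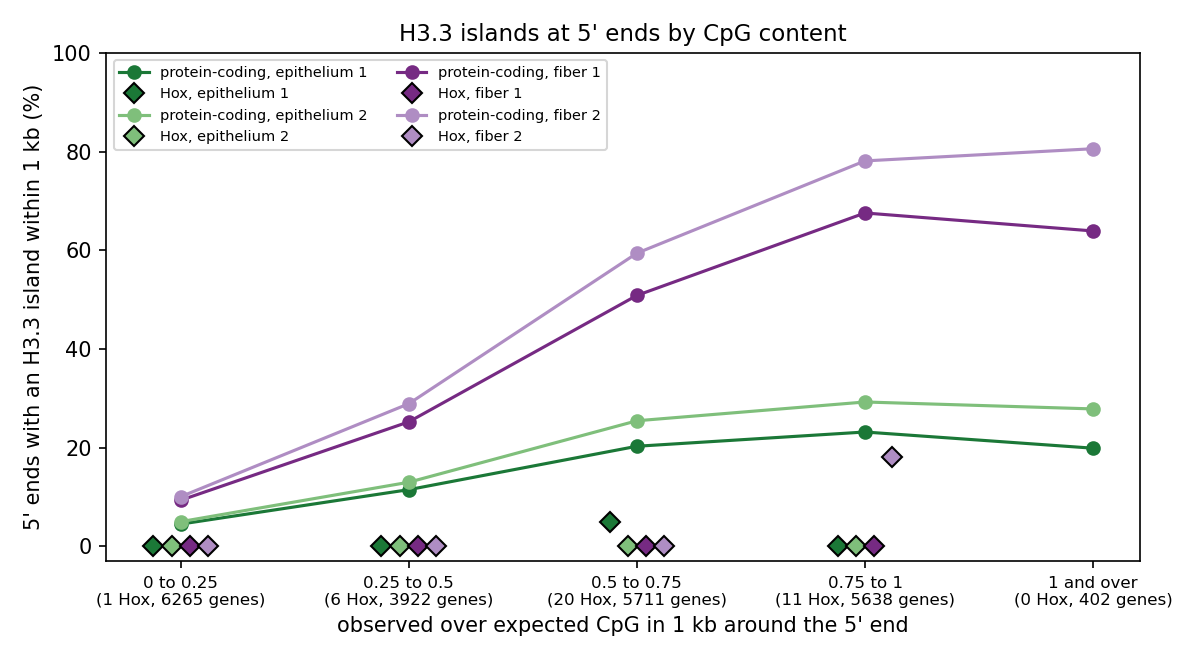
Share of 5′ ends with an H3.3 island within 1 kb, in percent, by the observed over expected CpG ratio in the 1 kb around the 5′ end. Circles joined by lines are all protein-coding genes and diamonds are Hox members, shifted sideways for visibility, in the color of the library. In the bin from 0.75 to 1, 78.1% of protein-coding genes and 2 of 11 Hox members had an island in fiber replicate 2.

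Outside the clusters, coverage by islands was lower within 100 kb than beyond it in every library. Within 50 kb of a cluster end, islands covered 0%, 0%, 1.30% and 0% of bases in the same order of libraries. From 100 to 250 kb they covered 2.76% and 4.42% in epithelium and 11.4% and 13.5% in fibers. From 250 to 500 kb the values were 4.44%, 2.69%, 12.3% and 13.6%, so coverage in epithelium replicate 2 was lower there than from 100 to 250 kb. From 500 to 1000 kb islands covered 4.38% and 5.10% in epithelium and 21.1% and 21.3% in fibers. All of the values beyond 100 kb lay above the share of assembled bases in the same library. Of 51 protein-coding genes that lie outside the clusters within 500 kb, 25 and 20 had an island in epithelium and 34 and 36 in fibers, or 49.0%, 39.2%, 66.7% and 70.6%, beside the background shares given above.

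**Figure D4:**
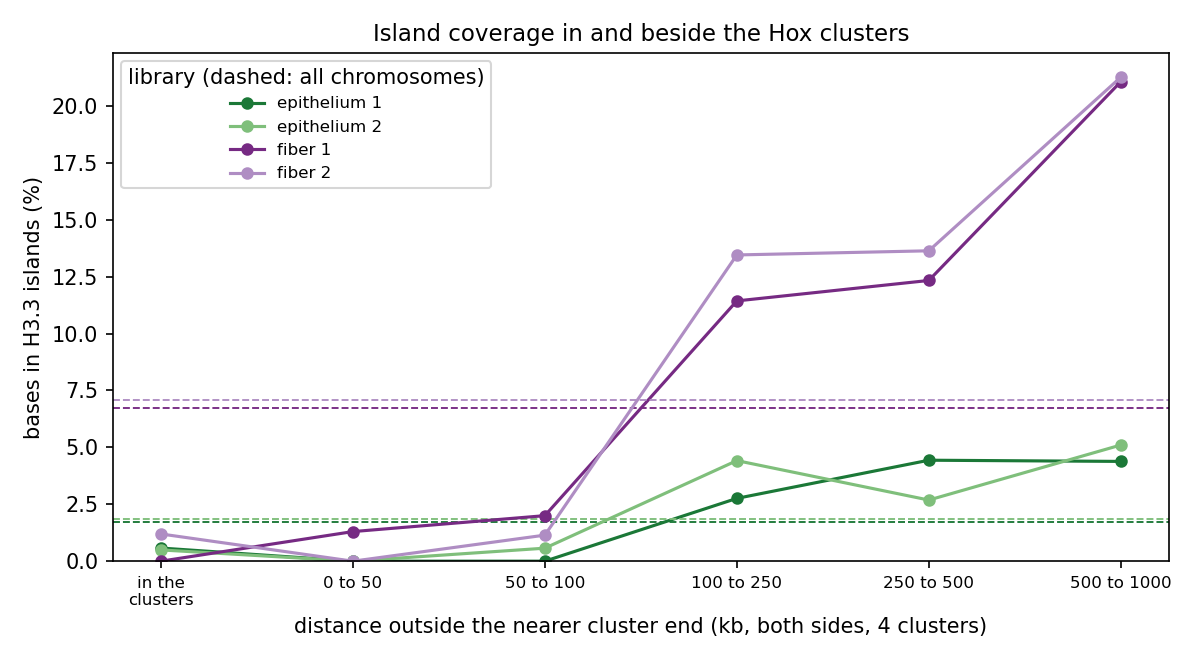
Share of bases in H3.3 islands, in percent, within the 4 Hox clusters and at increasing distance outside them, one line per library, with each library's share of all assembled bases as a dashed line. Coverage stays at or below 2.00% up to 100 kb from the clusters and reaches 21.1% and 21.3% in fibers at 500 to 1000 kb.

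The longest stretch without an island that reached into a cluster differed between clusters. For Hoxd it was 2110.6 kb in epithelium replicate 1 and 1792 kb in epithelium replicate 2, and 163.4 kb and 361.2 kb in fiber replicates 1 and 2. For Hoxc it was 536.6, 416.2, 468.6 and 396.4 kb in the same order. For Hoxa it was 740.6, 1300.8, 687 and 177 kb, and for Hoxb 680, 503.2, 683.6 and 617.2 kb. The stretches of the 4 clusters held 6 to 18 protein-coding genes. By number, 1.84 to 8.14% of all island-free stretches of the same library were at least as long, and the median stretch was 9.6 to 20.4 kb. By length, stretches at least as long made up 51.8 to 81.0% of all island-free sequence.

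The genes next to the clusters varied. Evx1, a homeobox gene beside Hoxa, had no called island in any library. Its relative Evx2 beside Hoxd was covered by 79.2% in fiber replicate 1 and by 0% in the other 3 libraries, and its island, 8.909 kb from the Hoxd cluster, was the nearest to any cluster. On the opposite side of Hoxd, Mtx2, a mitochondrial import gene, was covered by 1.52% in fiber replicate 1 alone. Skap2, an adaptor protein gene on the other side of Hoxa, was covered by 1.26% in fiber replicate 2 alone. Beside Hoxb, the adaptor gene Skap1 was covered by 0.859% in epithelium replicate 1 and 0.543% in fiber replicate 2, and the tubulin-modifying Ttll6 had no called island. Beside Hoxc, Smug1, a DNA repair gene, was covered by 0%, 23.8%, 2.12% and 9.36%, and Calcoco1 had no called island.

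Of the 22 listed genes beside the clusters, 7 and 6 had an island in epithelium and 14 and 16 in fibers, and 3 had one in all 4 libraries. Their shares were 31.8%, 27.3%, 63.6% and 72.7%, which is above that of all protein-coding genes in both fiber libraries and in epithelium replicate 1 and below it in epithelium replicate 2. One of these 3 was Hnrnpa1, an RNA-binding protein gene, which was covered by 88.9% and 69.8% in epithelium and 100% and 87.2% in fibers. Its neighbour Cbx5 was covered by 11.6% and 5.54% in epithelium and 26.5% and 24.5% in fibers. Of 16 listed non-coding genes in or next to the clusters, 14 had no called island in any library, and the others were Hoxaas3 and Gm53. Those without an island included Hotair, Hottip, Hotairm1 and the microRNA genes Mir10a, Mir10b and Mir196b. Hotairm1 and Hottip lie just outside the Hoxa span used here. The 16 genes are short, with a median of 4.36 kb, and Mir10b spans 68 bp. The share of all non-coding genes with an island was not computed.

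Genes whose products act with Hox proteins had islands. The TALE homeodomain proteins Pbx, Meis and Pknox bind DNA together with Hox proteins, and 4 and 5 of their 9 genes had an island in epithelium and 8 and 8 in fibers. Meis1 was covered by 11.5% and 6.47% in epithelium and by 29.7% and 32.8% in fibers. Pknox1 was covered by 20.5% and 23.7% in epithelium and by 77.3% and 71.7% in fibers. Meis3 had no called island. The shares of these 9 genes with an island, 44.4%, 55.6%, 88.9% and 88.9%, lay above the shares for all protein-coding genes in every library. These genes are long, with a median of 139 kb against 17.4 kb for all protein-coding genes, and 5 of the 9 exceed 100 kb. Within 1 kb of the 5′ end, 2, 1, 6 and 7 of them had an island (22.2%, 11.1%, 66.7% and 77.8%), which is below the share of all protein-coding genes in epithelium replicate 2 and above it in the other 3 libraries.

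Other homeobox genes were also examined. Of 18 homeobox genes of the anterior head and eye, 9 and 10 had an island in epithelium and 9 and 10 in fibers. These shares, 50% and 55.6% in each compartment, lay above those of all protein-coding genes in epithelium and slightly below them in fibers. Pax6, the regulator of eye development, was covered by 76.9% and 81.7% in epithelium and 94.4% and 85.2% in fibers. Prox1, needed for fiber elongation, was covered by 21.1% and 27.7% in epithelium and 98.5% and 100% in fibers. Six6, Otx2, Emx2, Dlx2 and Alx1 had no called island. The ParaHox genes, the sister group of the Hox genes, had 0 of 6 genes with an island in 3 libraries and 1 of 6, Gsx1, in fiber replicate 2, where 22.4% of the gene body was covered. The lists of cofactors, ParaHox genes and head homeobox genes were not tested against each other.

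**Figure D5:**
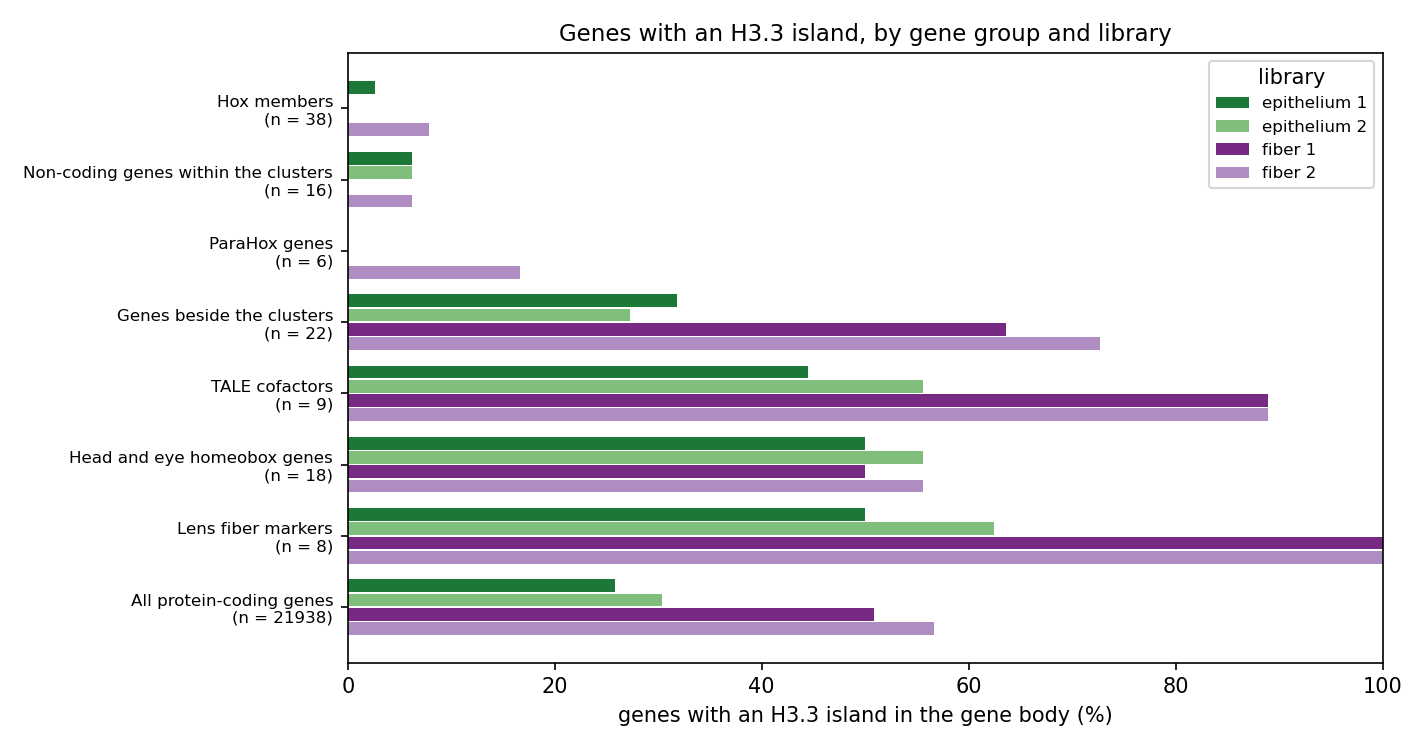
Share of genes with an H3.3 island in the gene body, in percent, with a bar for each library. Shown are the 38 Hox genes, 6 other gene groups and all protein-coding genes. The group of non-coding genes includes Hotairm1 and Hottip, which lie just outside the Hoxa span. The Hox bars reach 2.63% in epithelium replicate 1 and 7.89% in fiber replicate 2 and are 0% in the other 2 libraries, whereas the bars of all protein-coding genes lie between 25.8% and 56.7%.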

How the data were processed

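H3.3 ChIP-seq islands were analysed in 4 libraries, 2 of lens epithelium and 2 of lens fibers. BWA (aln and samse) was used by the authors to align the 75-nt single-end reads to mm10, and SICER2 to call islands, library by library (window 200 bp, gap 600 bp, false discovery rate 0.01). The deposited files give the count of reads in each island, not normalized. How duplicate reads were handled and whether a pooled input entered the calling is not given in the sources used here. The pooled input and the bisulfite libraries were not analysed here.

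Islands and genes of GENCODE vM21 were overlapped by at least 1 bp, on GRCm38, and positions count from 1. Reads per kb are an island's reads divided by its length. Composition was read from GRCm38.p6, at the 5′ end of each gene as annotated. Compartments were compared over libraries by an exact two-sided permutation test. Depth is unknown, no interval was computed, and 2 libraries per compartment limit the precision.

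Named genes are members with an island in at least 3 of 4 libraries (there were none), the member of each cluster with the highest covered share in fibers, and the neighbour at each cluster end. Hoxa3, Gm53 and the examples from the gene lists were named after their values were seen. Members and lists were chosen with earlier results of these data known. The alternatives left out each library, kept equal numbers of islands or the denser islands, and changed the overlap rule, the widening and the background. The overlap steps were tested on simulated data. Python 3.11.15, numpy 2.4.6 and matplotlib 3.10.9 were used.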

Additional observations from a re-analysis of the deposited data

How the results depend on the processing

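For the number of Hox genes with an island and the covered share, no alternative gave an exact permutation p below 0.33, the smallest this design allows. The fiber minus epithelium difference in members with an island was 1, lay between -0.5 and 2.5 when each library was left out in turn, and was -0.5 with equal numbers of islands (10389) of the highest read count, where fiber replicate 2 kept 0 members. For the covered share the difference of 0.0619 percentage points lay between -0.536 and 0.660 when each library was left out. With the replicate block, pairing libraries by replicate number, the differences were 1 and 0.0619 (exact sign-flip permutation test, two-sided, p = 1 for both, smallest possible p = 0.5). The number gives a shared name only, and with 2 pairs no check of the pairing was made. The ratio of fiber to epithelium density was 0.969 and lay between 0.912 and 1.03 with a library left out. The ratio rests on 4 islands, and leaving out fiber replicate 1, which has none, cannot change it. It had no value without fiber replicate 2 or with islands at or above their library's median reads per kb, where the epithelium libraries kept no cluster island.

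The members' share minus that of all protein-coding genes was -26.8 points in epithelium and -49.8 points in fibers, and negative under all alternatives. In epithelium it moved beyond the replicate SD to -17.9 with the denser islands, -6.17 when an island had to cover at least 50% of the gene body and -15.4 within 1 kb of the 5′ end. In fibers it moved to -30.9 and -28.2 with equal numbers of islands by read count and by reads per kb, -37.0 with the denser islands, -16.4 with at least 50% covered, -39.4 within 1 kb of the 5′ end, -47.8 for genes of the members' length range and -64.0 for CpG-rich 5′ ends, the last added after seeing the data. With a library left out it lay between -30.3 and -23.2 in epithelium and between -50.8 and -48.8 in fibers. Unknown depth limits every statement on a missing island.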

Other observations

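Genes of the chromatin regulators that act on Hox clusters were counted by the same overlap with gene bodies. Of 29 Polycomb genes, 11 and 12 had an island in the epithelium libraries and 22 and 24 in the fiber libraries. Cbx2, a chromodomain subunit of Polycomb repressive complex 1, was covered by 99.2% and 57.8% in epithelium and 90.4% and 100% in fibers. Jarid2, a subunit of Polycomb repressive complex 2, was covered by 0% and 1.98% in epithelium and 58.5% and 49.6% in fibers. Of the other genes of Polycomb repressive complex 2, Ezh2, Eed and Suz12 were covered by 0% in epithelium and by at most 7.76% in fibers. Rbbp4 was covered by 23.9% and 6.62% in epithelium and by 76.7% and 52.6% in fibers. Ezh1 was covered by 18.9% and 0% in epithelium and by 9.30% in both fiber libraries. Within 1 kb of the 5′ end, Eed had an island in both fiber libraries, and Ezh2 and Suz12 had one in fiber replicate 2. Rbbp7, Mtf2, Pcgf3, Pcgf5 and Phc1 had no called island. Of the 12 genes listed with the Trithorax group, 5 and 5 had an island in epithelium and 11 and 10 in fibers. These shares, 41.7%, 41.7%, 91.7% and 83.3%, lay above those of all protein-coding genes in each library, and the median length was 26.4 kb. Within 1 kb of the 5′ end, the share in epithelium replicate 2 was 16.7%, below the 18.4% of all protein-coding genes. In the other libraries it lay above. Kmt2a, a histone methyltransferase that maintains Hox expression, was covered by 5.13% and 2.31% in epithelium and 70.2% and 75.9% in fibers. Utf1, which is on that list although it is a chromatin factor of stem cells, had no called island. The shares of Polycomb genes with an island, 37.9%, 41.4%, 75.9% and 82.8%, lay above those of all protein-coding genes in each library. Their median length was 28.3 kb against 17.4 kb for all protein-coding genes. These are islands of a histone variant and not expression levels, and the genes were named after their values were seen.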
